A study of Saccharomyces cerevisiae with 12 samples.

Results

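Ribosome biogenesis factors are the proteins that make and modify rRNA and build the ribosomal subunits without staying in them. The 51 factors described here were taken by systematic name from the 7126 genes of the deposited count table, as NOP, UTP, RRP, IMP, and other nucleolar rRNA processing factors, a rule that uses no measured value. By their known roles, 23 act on the small subunit, 17 on the large subunit, and 3 on both, 6 are core proteins of the snoRNPs that modify rRNA, and 2 (NSR1 and NOP13) are other nucleolar proteins. All 51 carried the expected gene symbol in RefSeq and passed the filter on low counts, with between 157 and 3137 reads per gene and library.

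The mRNA was measured in 3 Saccharomyces cerevisiae strains that secrete α-amylase from a plasmid with the POT1 marker and the TPI1 promoter, in a CEN.PK background whose own TPI1 gene is deleted. AAC is the original strain, MH34 was derived from it by UV mutagenesis, and B184 was derived from MH34 in the same way, so that each evolved strain is 1 mutagenized lineage. Every strain was grown to steady state in carbon-limited chemostats, where the dilution rate sets the growth rate. Rates of 0.1/h or 0.2/h were used with biological duplicates, for 6 groups and 12 libraries. At 0.1/h, MH34 and B184 also received pure ethanol against oscillations, and none was named for AAC, so that strain and ethanol cannot be told apart in comparisons with AAC at 0.1/h, nor rate and ethanol in the rate effects of MH34 and B184.

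Total counts ranged from 6040221 to 10785960 per library, and 0.439% to 0.736% of them fell on the 51 factors. The deleted TPI1 gene still held 132 to 637 counts. Levels are given as CPM, which are counts per 1e6 counts of the library after TMM scaling, a scaling that sets the bulk of genes to no change between libraries, or as FPKM, which are counts per 1e6 counts of the library, without TMM scaling, divided by exon length in kilobases. FPKM is used wherever the levels of genes are compared with each other. The duplicates of AAC at 0.1/h stood apart from each other. Over the 51 factors, the median absolute difference between them was 0.41 on the log2 CPM scale, against 0.05 to 0.12 in the other 5 groups. Replicate 1 of AAC at 0.1/h had 0.673% of its counts on the factors and replicate 2 had 0.494%. In bulk RNA, fewer transcripts per cell and fewer expressing cells cannot be told apart. Most counts and medians over the factors that rest on this group are therefore also given without each of its libraries.

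Ribosome assembly starts in the nucleolus on the long rRNA precursor made by RNA polymerase I. Small-subunit factors, among them the UTP proteins, MPP10, IMP3, and IMP4, gather with the U3 snoRNA in the small-subunit processome, whereas large-subunit factors such as BRX1, EBP2, NOP7, and ERB1 build the precursor of the large subunit. Box C/D snoRNPs, with NOP1, NOP56, and NOP58, guide rRNA methylation, and box H/ACA snoRNPs, with CBF5, GAR1, and NHP2, guide pseudouridylation. In yeast these genes are known as the Ribi regulon, which follows growth rate and nutrient signals together with ribosomal protein genes. Many of their promoters hold a PAC element, bound by the repressors DOT6 and TOD6, and an RRPE element, bound by STB3.

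The promoters shared these letters to a degree that the choice of members had not used. The 250 bases before each start codon were read from the RefSeq R64 genome and searched on both strands for the PAC core GATGAG and the RRPE core AAAATTTT, which do not overlap as words but may lie side by side. The PAC core was found in 47 of the 51 promoters (92.2%) against 17% of 6007 yeast promoters of the same length, and the RRPE core in 41 (80.4%) against 8.66%. Both were present in 38 promoters (74.5%) against 4.08%. Small- and large-subunit factors were alike in this respect, with the PAC core in 87.0% and 94.1% and the RRPE core in 73.9% and 82.4% of their promoters, and all 6 snoRNP promoters held both. Other small-subunit factors outside the 51 (87.5% and 77.5% of 40) and other large-subunit factors (87.8% and 77.6% of 49) held the PAC and RRPE cores about as often. Of the cytosolic ribosomal protein genes, 10.2% held the PAC core and 6.57% the RRPE core. UTP22, a component of a small-subunit processome module, held neither. A match describes the sequence and is not evidence of a bound site. The promoters of 6 genes are printed because the expression results turn on them: NHP2 (chrIV:87262-87511, plus strand), NOP56 (chrXII:545847-546096, plus strand), and NOP58 (chrXV:898361-898610, minus strand), whose mRNAs were higher at 0.2/h in all 3 strains, and BRX1 (chrXV:186724-186973, minus strand), MAK16 (chrI:101146-101395, minus strand), and NOP16 (chrV:156553-156802, plus strand), whose mRNAs were lower at 0.2/h in AAC. They are written 5′ to 3′ in the direction of the gene and end at the base before the start codon, with PAC and RRPE cores on either strand in capitals.
NHP2: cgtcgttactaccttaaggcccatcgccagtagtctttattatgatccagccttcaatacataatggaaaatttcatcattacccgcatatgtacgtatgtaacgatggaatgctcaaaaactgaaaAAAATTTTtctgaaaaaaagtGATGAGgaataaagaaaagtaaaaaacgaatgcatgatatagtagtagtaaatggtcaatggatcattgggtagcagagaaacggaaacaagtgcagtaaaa
NOP56: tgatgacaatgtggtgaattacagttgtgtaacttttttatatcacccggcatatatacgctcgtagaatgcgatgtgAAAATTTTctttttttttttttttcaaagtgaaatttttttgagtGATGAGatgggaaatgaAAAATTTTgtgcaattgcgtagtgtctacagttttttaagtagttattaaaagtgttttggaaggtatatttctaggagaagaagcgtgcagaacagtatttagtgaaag
NOP58: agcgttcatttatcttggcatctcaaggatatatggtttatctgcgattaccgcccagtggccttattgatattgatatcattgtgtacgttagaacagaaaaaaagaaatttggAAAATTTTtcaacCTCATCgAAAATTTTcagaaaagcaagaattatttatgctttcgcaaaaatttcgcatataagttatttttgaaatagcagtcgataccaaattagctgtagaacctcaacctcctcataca
BRX1: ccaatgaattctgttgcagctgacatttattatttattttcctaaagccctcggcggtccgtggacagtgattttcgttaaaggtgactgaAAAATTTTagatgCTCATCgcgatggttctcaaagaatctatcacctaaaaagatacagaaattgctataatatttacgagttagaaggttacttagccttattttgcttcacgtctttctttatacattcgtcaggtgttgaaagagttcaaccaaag
MAK16: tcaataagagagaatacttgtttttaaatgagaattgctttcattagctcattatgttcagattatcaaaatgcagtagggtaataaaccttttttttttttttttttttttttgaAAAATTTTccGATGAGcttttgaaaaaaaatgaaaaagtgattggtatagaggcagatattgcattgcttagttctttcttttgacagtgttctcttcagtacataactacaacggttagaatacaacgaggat
NOP16: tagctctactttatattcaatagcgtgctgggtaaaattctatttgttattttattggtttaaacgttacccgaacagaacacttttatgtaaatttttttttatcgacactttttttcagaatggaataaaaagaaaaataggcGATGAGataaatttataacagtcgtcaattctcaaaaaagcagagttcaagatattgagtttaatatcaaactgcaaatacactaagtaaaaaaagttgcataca
BRX1 and MAK16 thus carried both cores, as the snoRNP genes did, and NOP16 only the PAC core. Among the factors, the median log2 fold change with the rate was 0.47 with and 0.10 without the RRPE core in AAC (41 and 10 genes), 0.34 and 0.39 in MH34, and 0.58 and 0.30 in B184. These medians are descriptive and were not tested.

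Levels per length differed between the classes in every library. NHP2, a core protein of H/ACA snoRNPs, had the highest mean over the 12 libraries with 293.7 FPKM, followed by TIF6, which keeps new large subunits from joining small ones, with 239.4 FPKM, and NOP1, the rRNA methyltransferase known as fibrillarin, with 236.2 FPKM. NOP16, a large-subunit factor, followed at 235.4 FPKM and the range over libraries overlapped for these 4 genes. The lowest were 3 large small-subunit factors, UTP13 at 23.6 FPKM, UTP10 at 15.5 FPKM, and UTP20 at 8.72 FPKM. The highest UTP20 library (10.3 FPKM) was below the lowest UTP10 library (10.96 FPKM), whereas UTP10 and UTP13 overlapped. The median log2 FPKM of the 23 small-subunit factors was below that of the 17 large-subunit factors by between 1.16 and 1.61 in all 12 libraries, as the plot of class medians shows. Large-subunit medians were between 6.26 and 7.02 and small-subunit medians between 4.86 and 5.50 on the log2 FPKM scale. The balance between them in summed CPM hardly moved, with 42.8% to 44.9% of it on the small-subunit side in any library.

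**Figure D1:**
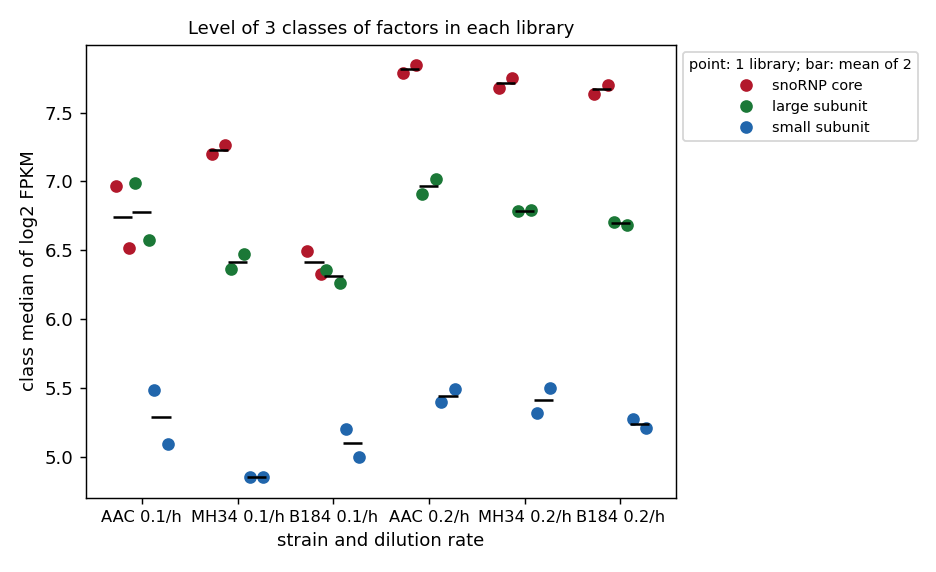
Median log2 FPKM (vertical axis) of snoRNP core proteins (6 genes), large-subunit factors (17), and small-subunit factors (23) in the 6 groups (horizontal axis). Each point is 1 library and each bar the mean of 2. Large-subunit medians lie above small-subunit medians by at least 1.16 in each library, and the snoRNP medians lie between 6.33 and 7.26 at 0.1/h and between 7.63 and 7.84 at 0.2/h.

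The share of snoRNP core proteins did move. They took 11.3% to 11.7% of the summed CPM of all 51 factors in AAC and B184 at 0.1/h, about 19.2% in both MH34 libraries at that rate, and 20.9% to 22.0% in the 6 libraries at 0.2/h. The heat map shows this gene by gene for NHP2, NOP56, NOP58, and CBF5.

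**Figure D2:**
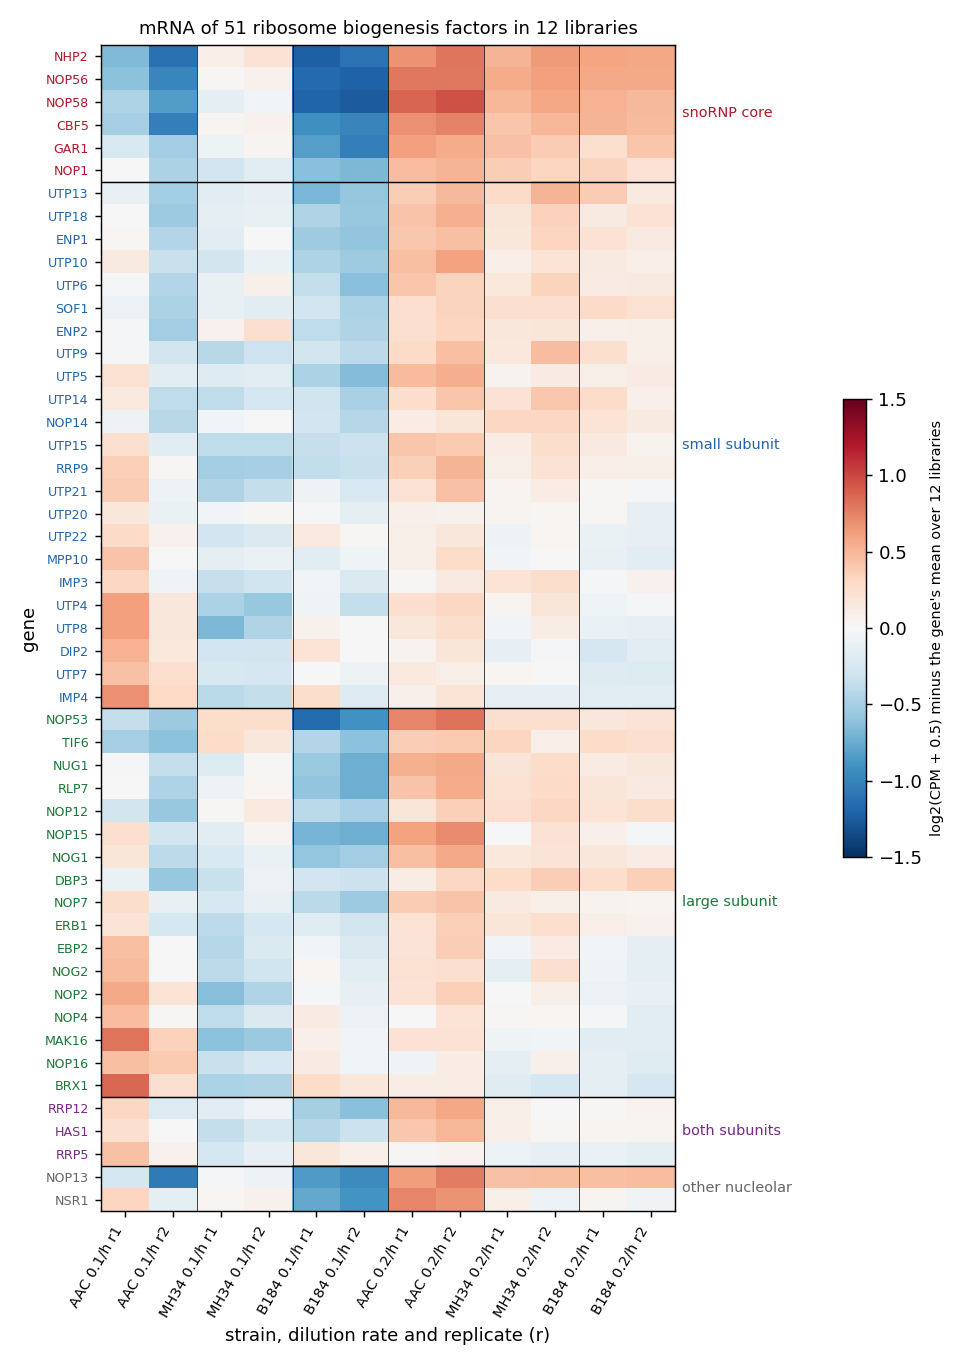
Heat map of the 51 factors (rows, grouped by class and ordered within it by the change in AAC) in the 12 libraries (columns). Color gives log2(CPM + 0.5) minus the mean of the gene over the 12 libraries, from blue (lower) to red (higher). The snoRNP rows are blue in AAC and B184 at 0.1/h and red in the 6 libraries at 0.2/h. The exception is NOP1, which lies near its mean in replicate 1 of AAC at 0.1/h. Replicate 1 of AAC at 0.1/h is redder than replicate 2 over most rows, with medians of 0.19 and −0.27.

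The first question was how the factors followed the dilution rate in the original strain. In AAC, 32 of the 51 factors rose at 0.2/h relative to 0.1/h and 5 fell at an adjusted p under 0.05, and the median log2 fold change over the factors was 0.46. Of all 6044 genes tested, 32.7% rose and 35.5% fell (68.2% called), with a median of −0.03. All 6 snoRNP core proteins rose, with a class median of 1.51. Of the small-subunit factors, 12 of 23 rose and 2 fell (median 0.36), and of the large-subunit factors, 10 of 17 rose and 3 fell (median 0.32). The 2 subunits therefore had similar medians, and the difference between them was not tested. Without TMM scaling, the small-subunit median of log2 FPKM was 5.487 and 5.095 at 0.1/h and 5.400 and 5.490 at 0.2/h. The large-subunit median was 6.987 and 6.574 and then 6.912 and 7.017, so that the rates overlapped in both classes. The snoRNP median, at 6.968 and 6.518 and then 7.784 and 7.844, did not overlap.

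NHP2 (YDL208W) had 78.0 and 56.6 CPM in the libraries of AAC at 0.1/h and 199.0 and 217.6 CPM at 0.2/h. The groups were well separated, and the log2 fold change was 1.63 (standard error 0.12, adjusted p = 8.0e-07, edgeR), which is 3.10-fold. NOP56 (YLR197W), a scaffold of C/D snoRNPs, had 122.5 and 94.9 CPM at 0.1/h and 326.8 and 325.4 CPM at 0.2/h. Its log2 fold change was 1.59 (standard error 0.10, adjusted p = 2.2e-07, edgeR). NOP58 (YOR310C), its partner in the same particle, went from 94.9 and 73.0 CPM to 238.8 and 253.9 CPM, and CBF5, the pseudouridine synthase of H/ACA snoRNPs, from 144.7 and 100.3 CPM to 328.6 and 342.3 CPM. Both also rose without overlap, with log2 fold changes of 1.56 and 1.46. The rises of GAR1, another H/ACA protein, and of NOP1 were smaller, at 0.96 and 0.71. GAR1 had 88.1 and 72.2 CPM at 0.1/h and 158.5 and 152.3 CPM at 0.2/h. NOP1 had 223.7 and 162.2 CPM at 0.1/h and 311.1 and 319.6 CPM at 0.2/h.

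Outside the snoRNPs, the highest values were those of NOP13, an RNA-binding nucleolar protein, and of the large-subunit factors NOP53 and TIF6. NOP13, named after its values were seen, had 51.7 and 29.5 CPM at 0.1/h and 95.6 and 106.2 CPM at 0.2/h, a log2 fold change of 1.33 (standard error 0.18, adjusted p = 1.3e-04, edgeR). Its duplicates at 0.1/h differed widely, and the value was 1.77 without AAC 0.1/h replicate 1 and 0.97 without AAC 0.1/h replicate 2. NOP53, which brings the exosome to the large-subunit precursor, had 61.1 and 53.7 CPM at 0.1/h and 130.3 and 138.4 CPM at 0.2/h, a log2 fold change of 1.23 (standard error 0.09, adjusted p = 5.8e-07, edgeR). TIF6 had 122.2 and 112.2 CPM and then 223.3 and 225.4 CPM. All 3 genes were separated between the rates without overlap. NSR1, the yeast relative of nucleolin, rose from 231.1 and 167.4 CPM to 306.3 and 295.3 CPM, and UTP13, in the UtpB module of the processome, from 51.5 and 39.1 CPM to 72.6 and 78.4 CPM. UTP20, with 7482 exon bases the longest of the 51 genes, had 73.1 and 60.8 CPM at 0.1/h and 68.9 and 68.3 CPM at 0.2/h, and the rates overlapped.

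The 5 factors that fell in AAC were the large-subunit factors BRX1, NOP16, and MAK16 and the small-subunit factors UTP7 and IMP4. BRX1 (YOL077C) had 262.1 and 170.9 CPM at 0.1/h and 156.2 and 155.9 CPM at 0.2/h, a log2 fold change of −0.47 (standard error 0.15, adjusted p = 0.019, edgeR). NOP16 (YER002W) had 220.2 and 212.0 CPM and then 153.9 and 173.6 CPM, a log2 fold change of −0.40 (standard error 0.09, adjusted p = 0.0025, edgeR). MAK16 (YAL025C) had 219.4 and 160.0 CPM and then 145.6 and 146.2 CPM, with a log2 fold change of −0.38. The groups did not overlap for any of the 3, but for BRX1 and MAK16 most of the distance came from replicate 1. Without AAC 0.1/h replicate 1, BRX1 was at −0.13 and MAK16 at −0.13 and neither passed the test, and both calls were also lost without either library of AAC at 0.2/h, with BRX1 at −0.47 and adjusted p of 0.072 and 0.076 and MAK16 at −0.37 and −0.38 with adjusted p of 0.052 and 0.051. Over all factors, 34 rose and 1 fell without AAC 0.1/h replicate 1 (median 0.67), and 27 rose and 12 fell without AAC 0.1/h replicate 2 (median 0.23). The snoRNP proteins rose in both cases, with medians of 1.75 and 1.30. For small-subunit factors the medians were 0.57 and 0.17, and for large-subunit factors 0.56 and 0.15.

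**Figure D3:**
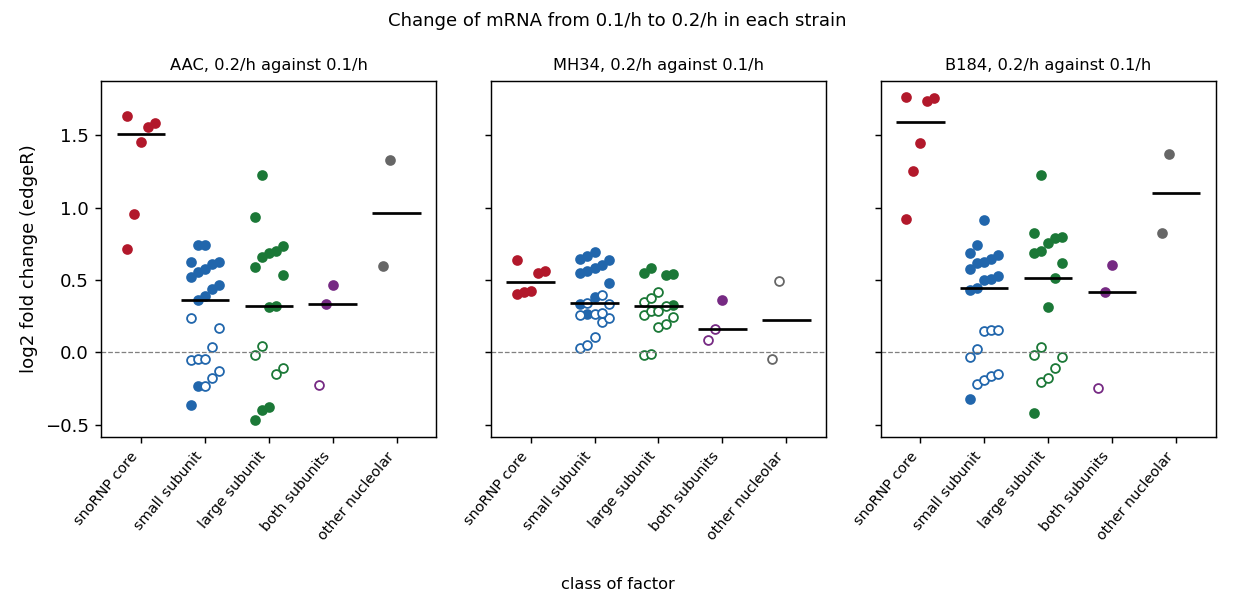
Log2 fold change at 0.2/h relative to 0.1/h (vertical axis, edgeR) of each factor by class (horizontal axis) in AAC, MH34, and B184. Filled points passed an adjusted p under 0.05, open points did not, and black bars are class medians. The snoRNP medians were 1.51 in AAC, 0.48 in MH34, and 1.59 in B184, and the small- and large-subunit medians were between 0.32 and 0.52 in all 3 strains.

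In B184, 33 of the 51 factors rose with the rate and 2 fell, against 33.9% and 32.7% of all genes tested (66.6% called), and the median over the factors was 0.53. All 6 snoRNP proteins rose again (median 1.59), with 13 of 23 small-subunit factors higher and 1 lower (median 0.44) and 10 of 17 large-subunit factors higher and 1 lower (median 0.52). NHP2 had 52.9 and 57.1 CPM at 0.1/h and 187.2 and 185.8 CPM at 0.2/h, a log2 fold change of 1.76 (standard error 0.12, adjusted p = 4.4e-07, edgeR). NOP56 had 83.9 and 80.9 CPM and then 279.1 and 278.4 CPM, also at 1.76 (standard error 0.10, adjusted p = 1.1e-07, edgeR). The duplicates lay close together and the rates did not overlap. NOP58 (1.74), CBF5 (1.45), GAR1 (1.25), and NOP1 (0.92) completed the class. The 2 factors that fell were BRX1, with 174.0 and 162.2 CPM and then 130.2 and 120.8 CPM, and DIP2, a UtpB protein also known as UTP12, with 119.1 and 103.4 CPM and then 86.5 and 91.7 CPM. Neither overlapped between the rates, and their log2 fold changes were −0.42 (standard error 0.15, adjusted p = 0.032, edgeR) and −0.32 (standard error 0.11, adjusted p = 0.028, edgeR). These 2 calls were weak. BRX1 missed the threshold when any 1 of the 4 B184 libraries was left out, with values between −0.37 and −0.48, and DIP2 without B184 0.1/h replicate 1 (−0.21), B184 0.2/h replicate 1 (−0.28), or B184 0.2/h replicate 2 (−0.36). With library totals in place of TMM scaling, 32 rose and 6 fell.

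In MH34, 24 of the 51 factors rose and none fell, against 13.5% and 13.3% of all genes tested, and the median was 0.35. By edgeR, 37 of the 51 had an unadjusted p under 0.05, against 2436 of the 6044 genes tested, and DESeq2 called 23 factors, all higher. The 6 snoRNP proteins rose by less than in the other strains, with a median of 0.48. Of the small-subunit factors, 12 of 23 rose (median 0.34), and of the large-subunit factors, 5 of 17 (median 0.32). The highest values were those of 2 small-subunit factors. UTP9, in the UtpA module that binds the precursor first, had 61.9 and 66.8 CPM at 0.1/h and 92.9 and 114.9 CPM at 0.2/h, a log2 fold change of 0.69 (standard error 0.12, adjusted p = 0.0029, edgeR). RRP9, which binds the U3 snoRNA, had 64.2 and 64.9 CPM and then 98.1 and 106.9 CPM, a log2 fold change of 0.67 (standard error 0.10, adjusted p = 0.0017, edgeR). Both were higher in each library at 0.2/h. MAK16 rose here, from 81.7 and 85.0 CPM to 120.4 and 122.4 CPM, where it fell in AAC. NHP2 had 133.3 and 144.2 CPM and then 177.5 and 192.8 CPM, a log2 fold change of 0.42 (standard error 0.12, adjusted p = 0.024, edgeR), also without overlap. The lowest values were those of NSR1, with 188.4 and 192.4 CPM and then 195.4 and 174.0 CPM (−0.04, adjusted p = 0.82, edgeR), and NOP53, with 94.7 CPM in both libraries at 0.1/h and 92.9 and 93.7 CPM at 0.2/h (−0.02, adjusted p = 0.88, edgeR). For NSR1 the rates overlapped. The number of calls in MH34 leaned on single libraries. It was 5 without MH34 0.1/h replicate 1, 11 without MH34 0.1/h replicate 2, 7 without MH34 0.2/h replicate 2, and 38 without either library of AAC at 0.1/h, which enter this comparison only through the shared spread. The NHP2 call was lost without each of the 3 MH34 libraries just named (0.36, 0.47, and 0.36), and that of MAK16 likewise (0.51, 0.57, and 0.53). NOP1, at 0.56, missed the threshold without MH34 0.1/h replicate 1 (0.50).

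Across strains, 16 factors (31.4%, against 7.5% of all genes tested) rose with the dilution rate in each of the 3, namely the 6 snoRNP proteins, the small-subunit factors NOP14, UTP9, UTP13, UTP14, UTP15, and SOF1, the large-subunit factors ERB1, NUG1, and DBP3, and the helicase HAS1, which serves both subunits. Another 16 (31.4%, against 20.1% of all genes) were called in AAC and B184 but not in MH34. In the test of the difference between MH34 and AAC, 6 of these 16 passed (NSR1, NOP12, NOP13, NOP53, ENP2, and TIF6), so that no difference is shown for the other 10. The call was made in MH34 alone for 7 factors (13.7%, against 4.47% of all genes), namely NOP2, UTP4, UTP7, UTP8, UTP21, IMP3, and MAK16. No rise was called in any strain for 11 factors (21.6%, against 56.5% of all genes), among them RRP5, MPP10, EBP2, NOG2, and UTP20.

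**Figure D4:**
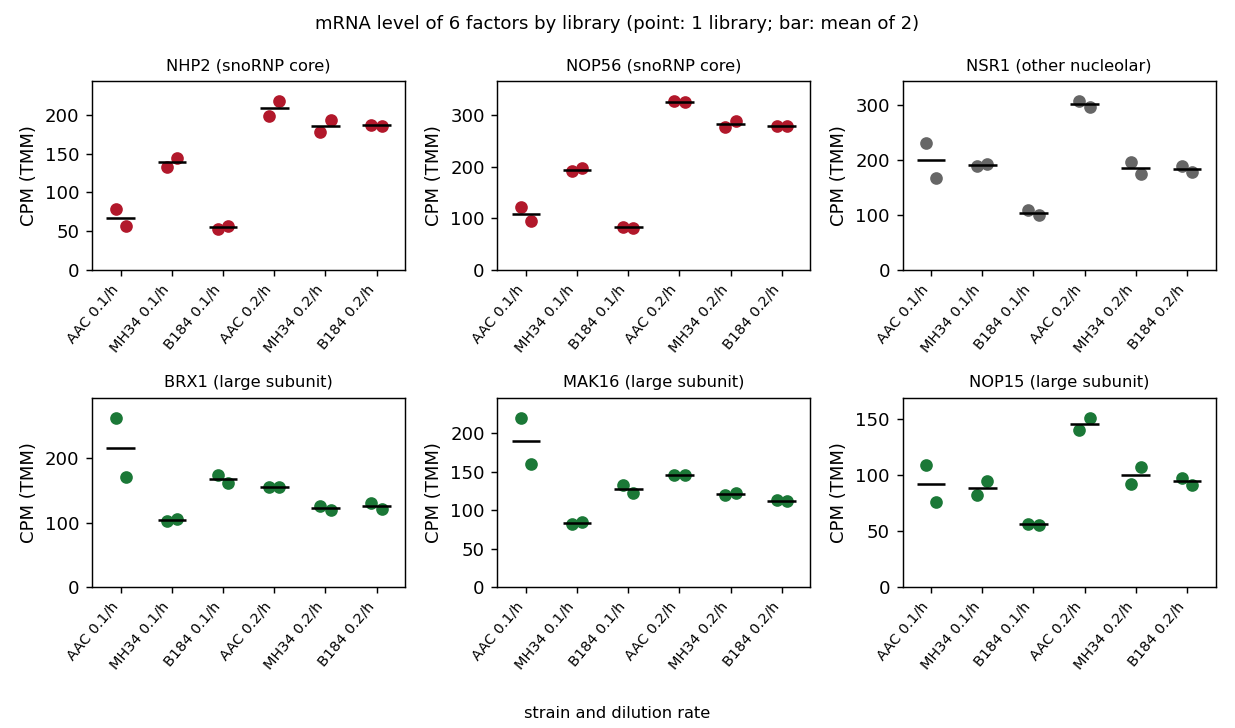
TMM-scaled CPM (vertical axes, from 0) of NHP2, NOP56, NSR1, BRX1, MAK16, and NOP15 in the 6 groups (horizontal axes). Each point is 1 library and each bar the mean of 2. NHP2 and NOP56 are lowest in AAC and B184 at 0.1/h. BRX1 and MAK16 are highest in AAC at 0.1/h, where the duplicates differ most, and lowest in MH34 at 0.1/h. NSR1 and NOP15 are highest in AAC at 0.2/h and lowest in B184 at 0.1/h.

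Whether the response to the rate differed between strains was tested as a contrast of its own. The rate effect of MH34 differed from that of AAC for 23 factors, 11 with a higher and 12 with a lower value in MH34, against 26.6% of all genes in each direction (53.1% called). NHP2 had a rate effect lower by 1.22 on the log2 scale in MH34 (−1.22, standard error 0.17, adjusted p = 1.5e-04, edgeR), and 5 of the 6 snoRNP proteins were lower in the same contrast. MAK16 had the opposite sign, at 0.92 (standard error 0.16, adjusted p = 8.3e-04, edgeR), together with 7 small-subunit factors and 3 other large-subunit factors, among them BRX1 and NOP16. The direction of this contrast depended on the duplicates of AAC at 0.1/h, with 8 higher and 23 lower without AAC 0.1/h replicate 1 and 21 higher and 10 lower without AAC 0.1/h replicate 2. With library totals in place of TMM scaling, 18 were higher and 6 lower, and the median of all genes then stood at 0.24. Between B184 and MH34, the rate effects differed for 22 factors, 14 higher and 8 lower in B184, against 27.8% and 24.1% of all genes (51.9% called), and NHP2 was at 1.34 (standard error 0.17, adjusted p = 8.2e-05, edgeR). Library totals turned this split to 8 higher and 13 lower, with the median of all genes at −0.13. Leaving out either library of AAC at 0.1/h gave 34 calls. Between B184 and AAC, the rate effect of none of the 51 factors differed by edgeR or by DESeq2, against 5.49% of all genes called (3.26% higher and 2.23% lower). By edgeR, 0 factors had an unadjusted p under 0.05, against 1347 of the 6044 genes tested. The median difference was 0.07, and the median standard error of this contrast was 0.17. Fitted differences lay between −0.15 and 0.30. What could be detected is set by the standard error and not by this range, so that larger differences may also have been missed. Without AAC 0.1/h replicate 2, 4 factors were called higher in B184. The contrasts share libraries and are therefore not independent of each other.

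The second question was how the evolved strains differed from AAC at the same rate. At 0.1/h, MH34 had 10 factors higher and 21 lower than AAC, against 35.5% and 33.3% of all genes (68.8% called), with a median of −0.19. The classes went apart. Of the snoRNP proteins, 5 of 6 were higher (median 0.67), whereas among small-subunit factors 1 was higher and 11 lower (median −0.23) and among large-subunit factors 3 were higher and 8 lower (median −0.26). NHP2 had 78.0 and 56.6 CPM in AAC and 133.3 and 144.2 CPM in MH34, a log2 fold change of 1.05 (standard error 0.12, adjusted p = 1.9e-05, edgeR), and NOP56 followed at 0.84 (standard error 0.10, adjusted p = 1.8e-05, edgeR). Neither overlapped between the strains. TIF6 rose from 122.2 and 112.2 CPM in AAC to 209.2 and 193.4 CPM in MH34, and NOP53 from 61.1 and 53.7 CPM to 94.7 CPM in both libraries. At the other end, MAK16 had 219.4 and 160.0 CPM in AAC and 81.7 and 85.0 CPM in MH34, a log2 fold change of −1.18 (standard error 0.12, adjusted p = 5.6e-06, edgeR). BRX1 had 262.1 and 170.9 CPM in AAC and 103.2 and 105.2 CPM in MH34, a log2 fold change of −1.05 (standard error 0.15, adjusted p = 1.6e-04, edgeR). The AAC libraries were apart from each other by more than the MH34 libraries for both genes, yet both lay above MH34. Without AAC 0.1/h replicate 1, 20 factors were higher and 16 lower (median 0.09), and without AAC 0.1/h replicate 2, 7 were higher and 31 lower (median −0.35), so that the sign of the median over the factors rested on these libraries. The snoRNP median stayed above 0 (0.89 and 0.46), and the small-subunit (−0.09 and −0.48) and large-subunit (−0.06 and −0.43) medians stayed below it.

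B184 at 0.1/h had no factor higher and 25 lower than AAC, against 16.5% and 20.4% of all genes, with a median of −0.37. Of the snoRNP proteins 4 of 6 were lower (median −0.41), of the small-subunit factors 9 of 23 (median −0.32), and of the large-subunit factors 9 of 17 (median −0.38). Without AAC 0.1/h replicate 1 the median was −0.12 over the factors, −0.19 for snoRNP proteins, −0.07 for small-subunit factors, and −0.16 for large-subunit factors. These medians were, without AAC 0.1/h replicate 2, −0.57, −0.61, −0.52, and −0.63. By edgeR, 31 of the 51 had an unadjusted p under 0.05, against 2855 of the 6044 genes tested, and DESeq2 called 22 factors, all lower. NSR1 had 231.1 and 167.4 CPM in AAC and 108.4 and 98.8 CPM in B184, a log2 fold change of −0.94 (standard error 0.13, adjusted p = 2.8e-04, edgeR). NOP15, a large-subunit factor, had 108.6 and 75.8 CPM in AAC and 56.5 and 55.1 CPM in B184, a log2 fold change of −0.72 (standard error 0.15, adjusted p = 0.0042, edgeR). The strains did not overlap for either gene. The highest fitted values were close to 0, at 0.03 for TIF6 (adjusted p = 0.81, edgeR), with 126.5 and 112.6 CPM in B184, and 0.01 for the helicase DBP3 (adjusted p = 0.95, edgeR), with 84.2 and 82.5 CPM in B184 against 96.5 and 69.1 CPM in AAC. Both genes overlapped between the strains. The number of lower factors was 15 without AAC 0.1/h replicate 1, 45 without AAC 0.1/h replicate 2, and 12 without B184 0.1/h replicate 2, and it was 9 when only these 2 groups entered the fit. NOP56, NOP58, GAR1, and NOP53 (7.84% of the factors, against 2.96% of all genes) were higher than AAC in MH34 and lower in B184. The GAR1 call in MH34 was lost without AAC 0.1/h replicate 2 (0.22) or MH34 0.1/h replicate 2 (0.30), and the NOP56 call in B184 without AAC 0.1/h replicate 1 (−0.20) or B184 0.1/h replicate 2 (−0.37). The rate effect in AAC and these comparisons share the AAC libraries at 0.1/h.

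**Figure D5:**
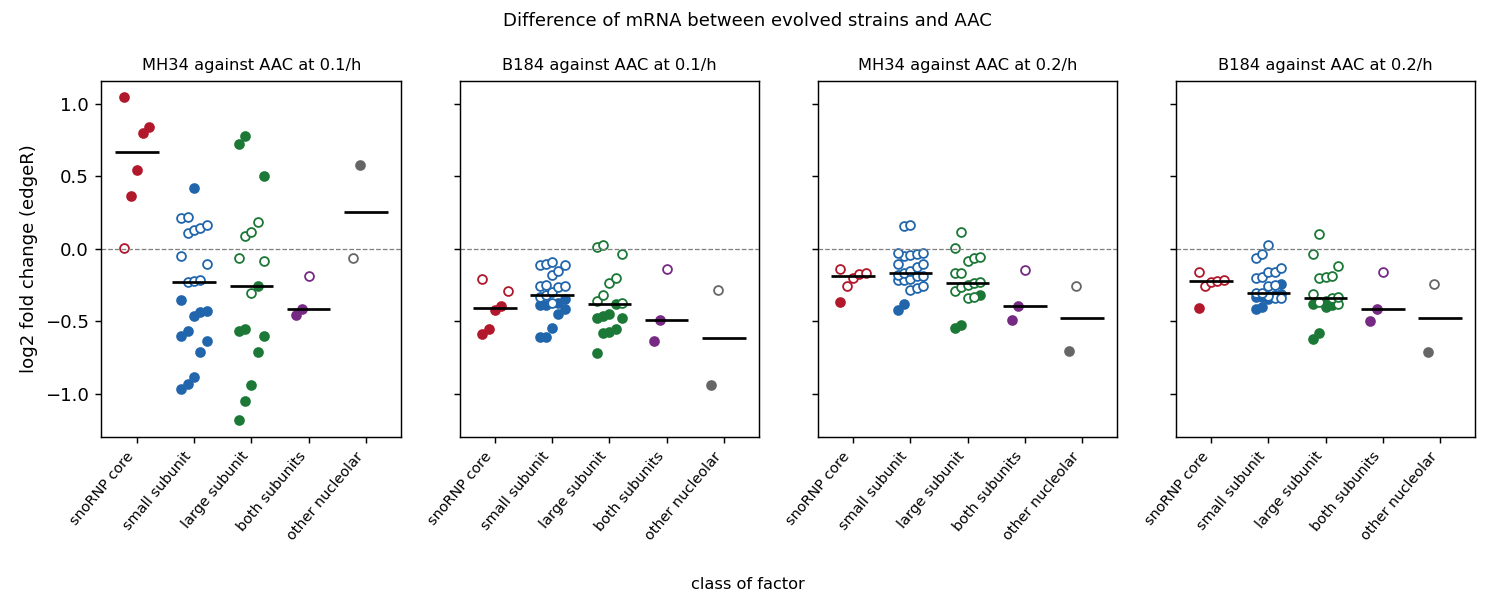
Log2 fold change against AAC (vertical axis, edgeR) of each factor by class (horizontal axis) for MH34 and B184 at 0.1/h and at 0.2/h. Filled points passed an adjusted p under 0.05, open points did not, and black bars are class medians. The snoRNP median was 0.67 in MH34 at 0.1/h and between −0.41 and −0.19 in the other 3 comparisons, where no factor was called higher.

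At 0.2/h, where no ethanol addition was named for any strain, fewer factors passed the test against AAC than at 0.1/h in the fit of all groups. For B184 this order was reversed when only the compared groups entered the fit. MH34 had no factor higher and 9 lower, against 17.4% and 15.7% of all genes, with a median of −0.19. B184 had none higher and 18 lower, against 18.4% and 17.7% of all genes (36.2% called), with a median of −0.31. Unadjusted p-values under 0.05 were found for 14 and 27 factors in edgeR, against 2625 and 2811 of the 6044 genes tested. DESeq2 called 8 and 15 factors, all lower. The 9 factors lower in MH34 were also among the 18 in B184 (17.6% of the factors lower in both, against 13.1% of all genes), and both comparisons share the AAC libraries at 0.2/h. They were NOP58, NSR1, NOP15, NOP53, RRP12, UTP5, UTP10, NUG1, and HAS1. Small-subunit factors made up 2 of 9 and 8 of 18 of these, and large-subunit factors 3 of 9 and 6 of 18.

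NSR1 had 306.3 and 295.3 CPM in AAC at 0.2/h, 195.4 and 174.0 CPM in MH34, and 189.3 and 178.3 CPM in B184. All 4 evolved libraries were below both AAC libraries, with log2 fold changes of −0.70 (standard error 0.12, adjusted p = 0.0016, edgeR) and −0.71 (standard error 0.12, adjusted p = 0.0014, edgeR). NOP15 had 140.2 and 150.2 CPM in AAC, 92.0 and 106.7 CPM in MH34, and 97.2 and 91.1 CPM in B184, again without overlap, with log2 fold changes of −0.55 (standard error 0.14, adjusted p = 0.013, edgeR) and −0.62 (standard error 0.14, adjusted p = 0.0062, edgeR). The NOP15 call in MH34 was lost without AAC 0.2/h replicate 2 (−0.50) or MH34 0.2/h replicate 1 (−0.45), and that in B184 without B184 0.2/h replicate 2 (−0.58). NOP53, with 130.3 and 138.4 CPM in AAC, had 92.9 and 93.7 CPM in MH34 and 88.6 and 90.8 CPM in B184. The highest fitted values passed no test. NOP14, a small-subunit factor, was at 0.17 in MH34 and 0.03 in B184, IMP3 was at 0.15 in MH34, and DBP3 at 0.10 in B184, with adjusted p between 0.22 and 0.86 in edgeR. The counts of lower factors were sensitive. For MH34 they were 23 without either library of AAC at 0.1/h, 3 without AAC 0.2/h replicate 2, 4 without MH34 0.2/h replicate 1, and 5 without MH34 0.2/h replicate 2. For B184 they were 34 without either library of AAC at 0.1/h, 5 without AAC 0.2/h replicate 2, 6 without B184 0.2/h replicate 1, and 3 without B184 0.2/h replicate 2. Library totals in place of TMM scaling left 3 and 6, with the median of all genes at 0.11 and 0.07.

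HAS1, named after its values were seen, was the one factor called lower than AAC in both evolved strains at both rates (1.96% of the factors, against 5.29% of all genes). It had 119.2 and 100.1 CPM in AAC at 0.1/h, 78.6 and 85.6 CPM in MH34, and 75.1 and 80.5 CPM in B184. At 0.2/h it had 134.0 and 142.2 CPM in AAC, 108.5 and 102.2 CPM in MH34, and 104.0 and 103.7 CPM in B184. The evolved libraries were below both AAC libraries at each rate. For MH34 the log2 fold changes were −0.42 and, at the higher rate, −0.39, and for B184 −0.49 and −0.41, with adjusted p between 0.0017 and 0.0063 in edgeR. The call in MH34 at 0.2/h was lost without MH34 0.2/h replicate 2 (−0.34, adjusted p = 0.052, edgeR).

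The evolved strains themselves differed at 0.1/h, where ethanol was added to both, and not detectably at 0.2/h. At 0.1/h, 10 factors were higher and 24 lower in B184 than in MH34, against 29.1% and 33.6% of all genes (62.6% called). All 6 snoRNP proteins were lower (median −1.07), and NHP2 was at −1.34 (standard error 0.12, adjusted p = 4.6e-06, edgeR). Small-subunit factors were split into 5 higher and 7 lower (median 0.01), and large-subunit factors into 4 higher and 8 lower (median −0.10). Library totals in place of TMM scaling gave 15 higher and 14 lower, and leaving out MH34 0.1/h replicate 2 gave 22 calls in place of 34. At 0.2/h, none of the 51 was called by edgeR or by DESeq2. By edgeR, 1 factor had an unadjusted p under 0.05, against 204 of the 6044 genes tested. Of all genes, 0.0165% were called. The median over the factors was −0.08, with a median standard error of 0.12.

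Other genes of the pathway, from lists of known members, were read from the same fit. In AAC, 15 of 40 other small-subunit factors rose with the rate and 8 fell (median 0.14). Of 49 other large-subunit factors, 20 rose and 9 fell (median 0.20), and of 14 RNA polymerase I subunits and factors, 8 rose and 3 fell (median 0.27). The shares that rose were 37.5%, 40.8%, and 57.1%, against 32.7% of all genes tested. Those that fell were 20%, 18.4%, and 21.4%, against 35.5%. Rises in the small- and large-subunit lists were thus near the share of all genes. The medians were 0.30, 0.38, and 0.48 without AAC 0.1/h replicate 1, with 23 higher and 5 lower, 34 and 3, and 9 and 3. They were −0.04, 0.02, and 0.12 without AAC 0.1/h replicate 2, with 13 higher and 14 lower, 10 and 11, and 5 and 3, so that neither the balance nor the sign of the small-subunit list held. In B184 the medians of these lists were 0.23, 0.24, and 0.28, and in MH34 0.21, 0.28, and 0.24. Of 137 cytosolic ribosomal protein genes, 133 rose and 1 fell in AAC (median 1.51, with 97.1% risen against 32.7% of all genes). In B184, 131 rose and 1 fell (median 1.66, 95.6% against 33.9%), and in MH34, 110 rose (median 0.40, 80.3% against 13.5%). These medians lay near those of the snoRNP core proteins and above those of the subunit factors. In MH34 against AAC at 0.1/h, the ribosomal protein median was 1.13, with 123 genes higher and 3 lower, against 35.5% and 33.3% of all genes. The ribosomal protein medians were 1.69 and 1.38 for the rate effect in AAC, and 1.31 and 1.01 for MH34 against AAC, without AAC 0.1/h replicate 1 and replicate 2. At 0.2/h the ribosomal protein median against AAC was 0.02 in MH34 and 0.03 in B184. In all, 7 and 5 of these genes were called, against 33.1% and 36.2% of all genes, where 9 and 18 of the 51 factors were lower.

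With the rate, 32.7% of all genes tested rose and 35.5% fell in AAC, 33.9% and 32.7% in B184, and 13.5% and 13.3% in MH34. Of 9 known regulators, 1 rose and 8 fell with the rate in AAC, 1 rose and 7 fell in B184, and 1 fell in MH34. In AAC, 1 rose in either case without AAC 0.1/h replicate 1 or replicate 2, and 6 or 8 fell. The 3 repressors of the PAC and RRPE elements are given here after their values were seen. STB3 had 389.0 and 364.7 CPM in AAC at 0.1/h and 203.5 and 217.7 CPM at 0.2/h, a log2 fold change of −0.84 (standard error 0.07, adjusted p = 2.2e-06, edgeR). In MH34 it had 138.1 and 143.5 CPM at 0.1/h and 147.5 and 165.4 CPM at 0.2/h (0.15, adjusted p = 0.15, edgeR), and in B184 335.9 and 336.9 CPM and then 145.9 and 146.3 CPM (−1.20). MH34 at 0.1/h was thus the lowest of the 3 strains at that rate, without overlap. DOT6 fell from 491.0 and 536.2 CPM to 206.3 and 196.6 CPM in AAC, from 333.1 and 364.6 CPM to 145.3 and 155.9 CPM in B184, and from 230.7 and 225.7 CPM to 174.1 and 153.6 CPM in MH34, with log2 fold changes of −1.35, −1.21, and −0.48. TOD6 had 125.3 and 112.2 CPM in AAC, 61.9 and 70.7 CPM in MH34, and 114.3 and 114.6 CPM in B184 at 0.1/h, and between 56.1 and 66.1 CPM in the 6 libraries at 0.2/h. A fall with the rate was not particular to these 3 repressors. In AAC and B184, SFP1 (−0.82 and −0.72), FHL1 (−0.45 and −0.67), IFH1 (−0.33 and −0.36), and SCH9 (−0.22 and −0.27) were also called lower. CRF1 was called lower in AAC (−1.76) and not in B184 (−0.02), and HMO1 was higher in both (0.89 and 0.79). Whether the levels of the regulators bear on those of the factors was not tested.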

How the data were processed

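The deposited table holds raw read counts per gene that the authors made from stranded, paired-end mRNA libraries. The study's methods describe mapping to Ensembl R64-1-1 and counting with an nf-core RNA-seq workflow, whereas the submitters' processing notes list TopHat2 2.0.12, Cufflinks 2.2.1, and Subread 1.4.6. Which of them made the deposited table, the strand setting, and the treatment of multi-mapped reads are not given in the sources used here. Of 7126 genes, 6048 matched RefSeq R64, which supplied names, lengths, and promoters.

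Counts were fitted with the robust quasi-likelihood test of edgeR 4.0.16 (R 4.3.3) after its filter on low counts (6044 genes) and TMM scaling, with the 6 groups in 1 model. Benjamini-Hochberg adjustment covered all genes tested, with a threshold of 0.05. The heat map used a pseudocount of 0.5. The method was tested on simulated data drawn with the same spread in every group. That test does not cover the wider spread of AAC at 0.1/h. Alternatives were DESeq2 1.42.0 (its size factors and its test), library totals, no filter, a fit that is not robust, only the groups compared, a replicate block, and leaving out each library.

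The 51 factors and the lists were chosen with earlier results of these data known. Values are given for the 2 highest and 2 lowest factors in each rate comparison and each comparison with AAC, the 3 highest and 3 lowest by FPKM, and the snoRNP proteins. Other genes were named after their values were seen. P-values rest on the spread between biological duplicates, which the main fit pools over all groups and moderates over genes. NOG2 overlaps the snoRNA gene SNR191 on the same strand, and its reads may be shared.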

Additional observations from a re-analysis of the deposited data

Results flagged for a closer look

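The response to the dilution rate differed between strains by the test of the difference itself. It differed between MH34 and AAC for 23 of the 51 factors (45.1%, against 53.1% of all genes tested). Between B184 and MH34 it differed for 22 factors (43.1%, against 51.9% of all genes). Both shares of the factors were below those of all genes. In the first contrast MAK16 was at 0.92 and NHP2 at −1.22 on the log2 scale, and in the second NHP2 was at 1.34. Ethanol was added to MH34 and B184 at 0.1/h and none was named for AAC, so that strain and ethanol cannot be told apart in the first contrast.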

How the results depend on the processing

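In some comparisons, and not in all, the number of factors called moved by over 1.5 times with the choice of libraries and scaling. When only the compared groups entered the fit, it was 37 in place of 24 for the rate effect in MH34, 9 in place of 25 for B184 against AAC at 0.1/h, 35 in place of 18 for B184 against AAC at 0.2/h, and 37 in place of 22 for the rate effect of B184 against that of MH34. With library totals it was 3 in place of 9 for MH34 and 6 in place of 18 for B184 against AAC at 0.2/h. Leaving out 1 library at a time gave 29 to 39 calls for the rate effect in AAC, 5 to 38 in MH34, and 31 to 39 in B184. Against AAC it gave 26 to 38 for MH34 and 12 to 45 for B184 at 0.1/h, and 3 to 23 and 3 to 34 at 0.2/h. For B184 against MH34 it gave 22 to 39 at 0.1/h and 0 to 0 at 0.2/h. For the rate effects it gave 17 to 31 between MH34 and AAC, 0 to 4 between B184 and AAC, and 16 to 34 between B184 and MH34. The cause was not tested.

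Values that changed sign were close to 0 and not called. With library totals, the rate effect in MH34 was 0.029 for NSR1 and 0.053 for NOP53. Leaving out 1 library at a time gave −0.129 to 0.039 for NSR1 in MH34. For B184 against AAC at 0.1/h it gave −0.057 to 0.114 for TIF6 and −0.211 to 0.271 for DBP3, and at 0.2/h it gave −0.015 to 0.063 for NOP14. The sign was turned without MH34 0.2/h replicate 2 for NSR1, without AAC 0.1/h replicate 2 or B184 0.1/h replicate 1 for TIF6 and DBP3, and without AAC 0.2/h replicate 1 or B184 0.2/h replicate 1 for NOP14. With only the groups compared, the falls of BRX1 (−0.44, adjusted p = 0.11, edgeR) and MAK16 (−0.34, adjusted p = 0.11, edgeR) in AAC were not called.

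The labels tie no replicate number to a shared batch or day, and the samples were not paired by it. Of 15 correlations of same-numbered deviations, 1 was above 0.1 (−0.20 to 0.37), which cannot exclude a shared batch. With the replicate block, 31 factors rose and 5 fell in AAC, 23 rose in MH34, and 32 rose and 2 fell in B184. Duplicates and a median standard error of 0.12 limit what could be detected.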
